A study of Homo sapiens with 4 samples.

Results

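The SOX and NFI families and OLIG2 were read on PrimeView arrays of U87MG, an established human glioblastoma line. The genes are SOX2, SOX4, SOX5, SOX6, SOX9, SOX11, NFIA, NFIB, NFIX and OLIG2, and every probe set that carries exactly 1 of these symbols was taken, which gave 46 of 49293 probe sets and 10 of 18132 genes. The 2 NeuroD2 arrays came from cells that had received an expression vector for the neurogenic factor NeuroD2, and the 2 control arrays from cells that had received a control vector labelled PCMV. All 4 cultures were kept at 0.2% oxygen and 5% carbon dioxide and were harvested 48 hours after transfection, so no culture at normal oxygen stands among them. The labels call the arrays of a group biological replicates without saying how the cultures were separated, and they give neither the promoter of the NeuroD2 vector nor the share of cells that took it up.

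SOX proteins bind DNA through a high-mobility-group box. SOX2 maintains neural stem cells, SOX9 promotes the switch of neural precursors from making neurons to making glia, SOX4 and SOX11 act in newborn neurons and progenitors, and SOX5 and SOX6 lack an activation domain of their own and modulate other SOX proteins. NFI proteins bind DNA as dimers, and NFIA acts with SOX9 at the onset of astrocyte formation. OLIG2 is a basic helix-loop-helix factor, as NeuroD2 is, and it specifies the oligodendrocyte lineage and is typical of stem-like glioma cells.

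Start-site windows of 300 bases were found in RefSeq (GRCh38.p14) for 7 of the 10 genes, SOX2, SOX4, SOX5, SOX6, NFIA, NFIB and NFIX, in 26 windows, several of them alternative and partly overlapping starts of 1 gene. Each runs from 250 bases before the start to 50 after it. The first listed window of NFIB is shown because NFIB had, after SOX9, the lowest unadjusted p among the 10 genes, and the window of SOX4 because it holds more NFI core motifs than any other of the 26. Capitals mark the E-box CANNTG, which basic helix-loop-helix factors bind, the hypoxia response core ACGTG and the NFI core TTGGC, each on either strand. The NFIB window is chr9:14322338-14322637 on the minus strand and the SOX4 window is chr6:21593501-21593800 on the plus strand.
NFIB: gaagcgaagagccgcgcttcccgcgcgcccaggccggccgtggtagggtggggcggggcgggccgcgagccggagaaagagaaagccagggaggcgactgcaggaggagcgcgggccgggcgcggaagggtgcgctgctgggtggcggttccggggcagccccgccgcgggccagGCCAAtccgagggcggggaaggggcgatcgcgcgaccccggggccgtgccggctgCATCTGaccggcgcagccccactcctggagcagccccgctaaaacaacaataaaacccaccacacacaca
SOX4: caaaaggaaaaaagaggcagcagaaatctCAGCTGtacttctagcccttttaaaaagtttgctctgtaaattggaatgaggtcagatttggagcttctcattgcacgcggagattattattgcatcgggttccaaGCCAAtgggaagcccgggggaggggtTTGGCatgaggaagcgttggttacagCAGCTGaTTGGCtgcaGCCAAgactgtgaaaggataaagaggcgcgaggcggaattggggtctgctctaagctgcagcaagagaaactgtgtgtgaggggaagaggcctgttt
The NFIB window holds 1 E-box, CATCTG, at position -20 from the start, and 1 NFI core at -75. The SOX4 window holds 2 E-boxes, both CAGCTG, at -221 and -63, and 4 NFI cores, at -115, -89, -56 and -47. An E-box stood in 18 of the 26 windows, and in 68.7% of all 35116 windows. The NFI core stood in 13 of the 26 and in 45.6% of all, and the hypoxia core in 3 of the 26 and in 21.4% of all. The SOX core motifs ACAAT and ACAAAG, not marked here, each stood in 8 of the 26, and in 27.4% and 16.1% of all. The shares of the 26 windows lie near those of all windows for the E-box, the NFI core and ACAAT. The share was higher for ACAAAG and lower for the hypoxia core. These shares were not tested, as several windows overlap, and the letters show no binding.

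The arrays were checked first. NEUROD2 stood at 7.37 and 7.82 on the NeuroD2 arrays, against 5.46 and 5.35 on the control arrays, on the brightest of its 3 probe sets (log2; difference 2.19, adjusted p = 0.0044 by limma, and 0.141 and 0.147 without control replicate 1 and without control replicate 2). Its other probe sets differed by -0.07 and -0.21 (adjusted p = 0.683 and 0.513 by limma). None of 8 markers of this kind of cell line passed by limma, and 1, GFAP, had an unadjusted p below 0.05. GFAP, an astrocyte marker, stood at 6.32 and 6.35 on the NeuroD2 arrays, against 6.11 and 6.07 on the control arrays. The mesenchymal marker VIM stood at 14.14 and 14.15 on the NeuroD2 arrays, against 14.12 and 14.18 on the control arrays. The markers in this paragraph were named after their values were seen. Of 8 microglia and leukocyte markers, 5 endothelial markers and 3 measured oligodendrocyte markers, 0 passed by limma, with 2 (PTPRC and ITGAM), 2 (KDR and CLDN5) and 0 at an unadjusted p below 0.05. The mean level of each of these 3 lists lay between 4.83 and 5.13 on the NeuroD2 arrays, against 4.83 to 5.04 on the control arrays. Single markers stood above these means, the brightest being CD68. It stood at 10.21 and 10.13 on the NeuroD2 arrays, against 10.13 and 10.07 on the control arrays. No detection calls were used, so no gene is called absent. Of 5 neuron markers 1, SNAP25, was lower by limma. The mean level of these markers was higher, 7.15 and 7.08 on the NeuroD2 arrays, against 7.30 and 7.29 on the control arrays. At an unadjusted p below 0.05 stood 3 of the 5, SNAP25 and SYT1 (-0.45) with negative differences and STMN2 (0.21) with a positive one. The hybridisation spike RNAs were 0.39 above the control arrays with the NeuroD2 vector (0.22 without control replicate 1 and 0.56 without control replicate 2), and the poly-A spikes stood at 6.95 on control replicate 1, against 7.96 to 8.03 on the other 3 arrays. In these bulk samples, fewer cells of a kind and less RNA per cell cannot be told apart.

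With the NeuroD2 vector, SOX9 transcript was lower, and it was the single gene of the 10 to pass limma's test across all genes. The other 9 did not pass, among them NFIB, with a difference of -0.36, and OLIG2, with 0.39, whose groups did not overlap either. Across all genes, 4.77% passed, with 2.96% lower and 1.81% higher. An unadjusted p below 0.05 was reached by 4 of the 10, SOX6, SOX9, NFIB and OLIG2, and by 21.8% of all genes. The 10 genes had a median difference of 0.03 on the log2 scale, with 4 lower and 6 higher, and the median over all genes was 0. The groups did not overlap in 6 of the 10 genes, and in 50.8% of all genes (26.6% lower and 24.2% higher). On single probe sets, 1 of 46 passed, against 2.87% of all (1.61% lower and 1.26% higher), and 5 had an unadjusted p below 0.05, against 19.7% of all. Of the 46, 19 were without overlap, 10 higher and 9 lower, against 49.3% of all, of which 25% were higher and 24.3% lower. The counts of genes and of probe sets without overlap thus lie near those of the whole array. For SOX2, SOX5, SOX6, SOX11 and NFIA no probe set reached the median level of all probe sets, 5.98. Their differences below were read at low signal.

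**Figure D1:**
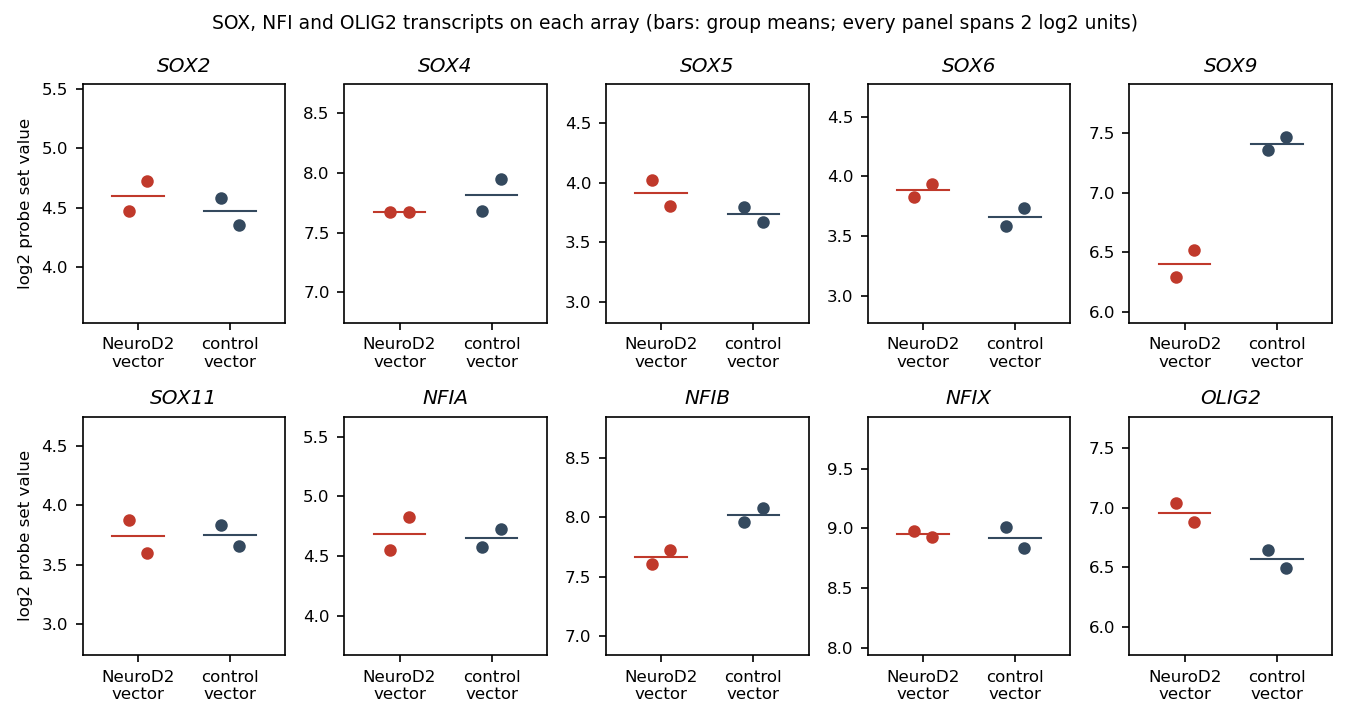
Log2 values of the 10 genes on each array, each on the probe set with the highest mean of its gene; points are arrays (NeuroD2 vector left in red, control vector right in blue) and bars are means of 2. Every panel spans 2 log2 units, so vertical distances compare between panels while heights do not; the SOX9 groups lie 1.01 apart and those of NFIB and OLIG2 0.36 and 0.39.

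SOX9, the glial fate factor, stood at 6.29 and 6.52 on the NeuroD2 arrays, against 7.36 and 7.47 on the control arrays (log2, probe set 11758216_s_at). Both NeuroD2 arrays lay below both control arrays, by more than the gap within either pair. The means were 6.41 ± 0.16 with the NeuroD2 vector and 7.41 ± 0.08 with the control vector (SD, n = 2 each). SOX9 fell by 1.01, with a 95% interval from -1.26 to -0.75, which is 2.01-fold lower (adjusted p = 0.0109 by limma). Only 34 of the 18132 genes had a more negative difference. Probe sets whose names end in _s_at or _x_at, 16 of the 46 and this one among them, can hold probes that match more than 1 transcript. The other SOX9 probe sets were dimmer, with means of 4.19 and 4.17 over the 4 arrays, under the median of all probe sets, 5.98. They gave smaller differences that did not pass. On 11720447_s_at the values were 3.999 and 4.11 with the NeuroD2 vector and 4.61 and 4.03 with the control vector, and here the groups overlapped, as control replicate 2 lay between the NeuroD2 arrays. On 11720448_at they were 4.05 and 4.04 with the NeuroD2 vector and 4.13 and 4.45 with the control vector, without overlap. The differences were -0.27 (interval -0.73 to 0.19, adjusted p = 0.498 by limma) and -0.24 (interval -0.54 to 0.05, adjusted p = 0.339 by limma). With the mean of the 3 probe sets SOX9 fell by 0.51 (adjusted p = 0.0138 by limma). On the brightest probe set the adjusted p by limma was 0.071 without NeuroD2 replicate 1 (difference -0.89), 0.0426 without NeuroD2 replicate 2 (-1.12), 0.141 without control replicate 1 (-1.06) and 0.147 without control replicate 2 (-0.95), and 0.224 in a linear model that shares no variance between genes. Without control replicate 1 the poly-A spikes differed by 0.02 and the hybridisation spikes by 0.22, and the part of either in the SOX9 difference was not tested.

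The 3 genes outside the set whose profile over the 4 arrays lay closest to that of SOX9 were PCOLCE2, which encodes an enhancer of procollagen processing, CARD16, and TGFA, which encodes a ligand of the EGF receptor. Their root-mean-square distances to SOX9, after each gene was centred on its own mean, were 0.019, 0.045 and 0.045 log2 units. PCOLCE2 stood at 5.77 and 5.96 on the NeuroD2 arrays, against 6.81 and 6.96 on the control arrays, a difference of -1.02. The differences of CARD16 and TGFA were -0.96 and -0.92. Likeness over 4 arrays describes size and direction and little else.

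The stem cell factor SOX2 was read on 3 probe sets. It stood at 4.47 and 4.73 on the NeuroD2 arrays, against 4.58 and 4.36 on the control arrays, on the brightest. The groups overlapped, and the difference of 0.13 had an interval from -0.17 to 0.43 (adjusted p = 0.616 by limma). On the other probe sets the differences were 0.08 and 0.11, and the groups overlapped on each of the 3. On the brightest, leaving out NeuroD2 replicate 1 gave 0.26, leaving out NeuroD2 replicate 2 gave -0.0014, and leaving out control replicate 1 or 2 gave 0.24 or 0.015.

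SOX4 and SOX11, the paired factors of progenitors and young neurons, did not pass either. SOX4 stood at 7.67 on both NeuroD2 arrays, against 7.68 and 7.95 on the control arrays. The groups were apart by a narrow margin, as control replicate 1 lay beside the NeuroD2 arrays. The difference was -0.15, with an interval from -0.41 to 0.12 (adjusted p = 0.494 by limma). Leaving out control replicate 1 gave -0.28, and leaving out control replicate 2 gave -0.011. Over its 7 probe sets the differences ran from -0.23 to 0.23, with 4 above 0 and 3 below, and their mean gave 0.0074, of opposite sign to the brightest. SOX11 stood at 3.87 and 3.60 on the NeuroD2 arrays, against 3.84 and 3.65 on the control arrays. The overlap was complete, with a difference of -0.01 and an interval from -0.30 to 0.29 (adjusted p = 0.989 by limma). On 11724708_at, 1 of its 4 probe sets, SOX11 stood at 3.21 and 3.30 with the NeuroD2 vector and 3.42 and 3.58 with the control vector, a difference of -0.24 (adjusted p = 0.224, unadjusted p = 0.0395 by limma).

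SOX5 and SOX6, the members without an activation domain, had positive differences on their brightest probe sets. SOX5 stood at 4.02 and 3.80 on the NeuroD2 arrays, against 3.80 and 3.67 on the control arrays, with NeuroD2 replicate 2 just above control replicate 1. The difference was 0.18, with an interval from -0.08 to 0.43 (adjusted p = 0.389 by limma). It was 0.066 without NeuroD2 replicate 1, 0.29 without NeuroD2 replicate 2 and 0.11 without control replicate 2. SOX6 stood at 3.83 and 3.94 on the NeuroD2 arrays, against 3.59 and 3.73 on the control arrays, without overlap. The difference was 0.22, with an interval from 0.0026 to 0.44, which did not pass (adjusted p = 0.226, unadjusted p = 0.0481 by limma). The 3 probe sets of SOX5 ran from -0.15 to 0.18 and the 6 of SOX6 from -0.04 to 0.22, and their means gave 0.03 for SOX5 and 0.08 for SOX6. None of these probe sets passed by limma across all probe sets, where the brightest one of SOX6 had an unadjusted p of 0.0548.

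**Figure D2:**
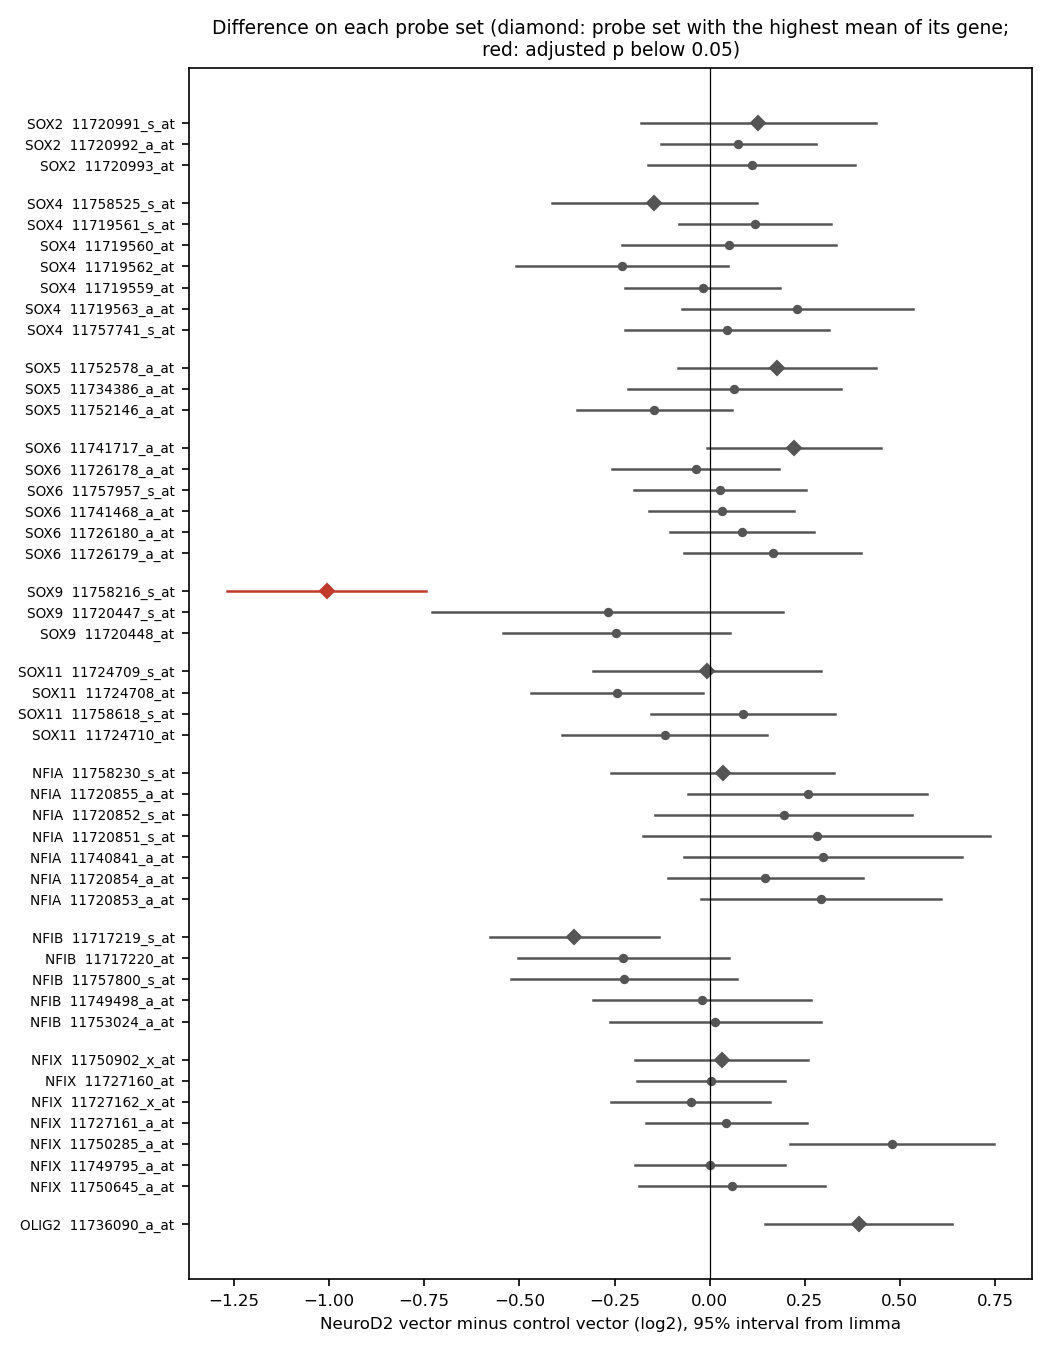
Difference between NeuroD2 vector and control vector (log2, horizontal) on each of the 46 probe sets, grouped by gene from bright to dim, with 95% intervals from limma; diamonds mark the probe set with the highest mean and red an adjusted p below 0.05. The interval of the brightest SOX9 probe set ends at -0.75, and the 7 probe sets of NFIA all lie above 0, each with an interval that includes 0.

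NFIB, an NFI factor that acts in glial and lung development, stood at 7.61 and 7.73 on the NeuroD2 arrays, against 7.96 and 8.08 on the control arrays, without overlap. The means were 7.67 ± 0.09 with the NeuroD2 vector and 8.02 ± 0.08 with the control vector (SD, n = 2 each), and the difference of -0.36 had an interval from -0.57 to -0.14 (adjusted p = 0.0805, unadjusted p = 0.00668 by limma). It thus missed the threshold. It passed where an intensity trend was fitted (adjusted p = 0.036 by limma). It also passed where the dimmer genes, those under the median of all genes, were left out (adjusted p = 0.0198 by limma). These were the only 2 of 12 alternatives where it passed. Without any 1 array the difference on this probe set ran from -0.42 to -0.30. The next brightest probe sets of NFIB differed by -0.23 and -0.23, again without overlap. These became -0.35 and -0.37 without control replicate 1, and -0.10 and -0.080 without control replicate 2. The last pair by brightness differed by -0.02 and 0.02 with overlap. Their means over the 4 arrays were 6.78, above the median of all probe sets, 5.98, and 5.56, under it. The mean of all 5 gave -0.16 (adjusted p = 0.293 by limma).

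NFIA, the partner of SOX9 in astrocyte formation, stood at 4.55 and 4.82 on the NeuroD2 arrays, against 4.58 and 4.73 on the control arrays. The control values lay within the range of the NeuroD2 values, and the difference was 0.03 with an interval from -0.25 to 0.32 (adjusted p = 0.914 by limma). All 7 probe sets had differences above 0, from 0.03 to 0.30, and 3 were without overlap. They read 1 gene in the same 4 samples and are not independent, and none passed by limma (lowest adjusted p = 0.283, 0 at an unadjusted p below 0.05). The mean of the 7 gave 0.21, larger than the 0.03 of the brightest, and did not pass either (adjusted p = 0.195, unadjusted p = 0.0367 by limma).

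NFIX, an NFI factor active in neural stem cells, stood at 8.97 and 8.93 on the NeuroD2 arrays, against 9.01 and 8.83 on the control arrays. The difference was 0.03, with an interval from -0.19 to 0.25 (adjusted p = 0.891 by limma). Of its 7 probe sets, 6 differed by between -0.05 and 0.06. The exception was 11750285_a_at, at 5.97 and 6.23 with the NeuroD2 vector and 5.64 and 5.60 with the control vector. Here the NeuroD2 arrays lay above the control arrays, by 0.48 (interval 0.21 to 0.75), which did not pass (adjusted p = 0.0827, unadjusted p = 0.00479 by limma). The mean of this probe set over the 4 arrays, 5.86, lay just under the median of all probe sets, 5.98.

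OLIG2, the oligodendrocyte lineage factor, is read by 1 probe set. It stood at 7.04 and 6.88 on the NeuroD2 arrays, against 6.64 and 6.49 on the control arrays. Both NeuroD2 arrays were above both control arrays, with means of 6.96 ± 0.12 with the NeuroD2 vector and 6.57 ± 0.11 with the control vector (SD, n = 2 each). The difference of 0.39, or 1.31-fold, had an interval from 0.15 to 0.63 and did not pass (adjusted p = 0.0829, unadjusted p = 0.00705 by limma). It passed where genes under the median of all genes were left out (adjusted p = 0.0219 by limma), the only 1 of 12 alternatives where it did. Its control mean lay close to that median, 6.56. Without any 1 array the OLIG2 difference ran from 0.31 to 0.47.

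**Figure D3:**
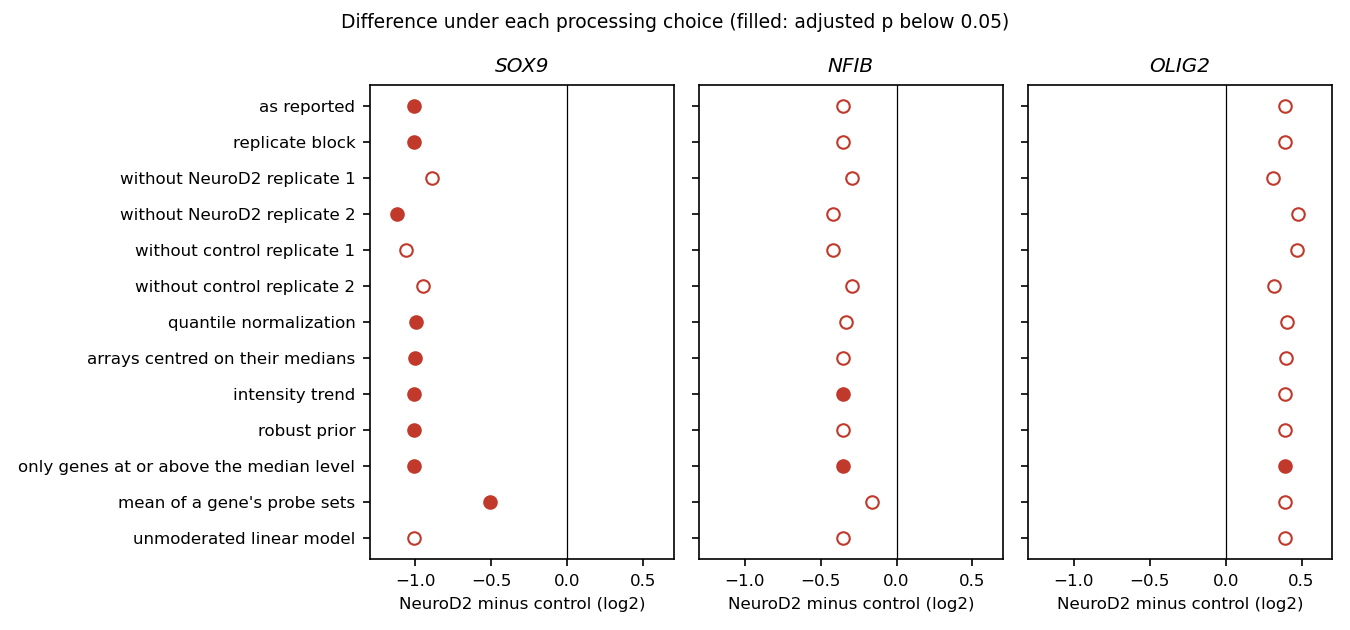
Difference between NeuroD2 vector and control vector (log2, horizontal) of SOX9, NFIB and OLIG2 as reported and under 12 other processing choices (vertical), filled where the adjusted p was below 0.05. SOX9 entered the run filtered at the median level only through its control arrays. SOX9 stayed between -1.12 and -0.51 and was filled in 8 of the 12, NFIB was filled in 2 and OLIG2 in 1.

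Of 74 measured genes in 7 related lists, 5 were lower with the NeuroD2 vector and 0 higher by limma, with a median difference of 0.02. These are 6.76% of the 74, beside 4.77% of all genes called, 2.96% lower and 1.81% higher. An unadjusted p below 0.05 was reached by 15 of the 74, or 20.3%, beside 21.8% of all genes. The share called in either direction and the share at an unadjusted p below 0.05 thus lie near those of the whole array. By direction they differ, as all 5 called genes were lower, 6.76% against 2.96%. With 5 genes, nothing particular to the lists is read from the counts. None of 13 other SOX family genes and none of the other NFI and OLIG genes NFIC, OLIG1 and OLIG3 passed by limma, and an unadjusted p below 0.05 was reached by 1 of each list, SOX17 and NFIC. SOX17, an endoderm and vascular SOX factor, stood at 6.73 and 6.27 on the NeuroD2 arrays, against 5.81 and 5.97 on the control arrays (difference 0.61, adjusted p = 0.0968 by limma). With the mean of its probe sets SOX17 passed, at 0.47 (adjusted p = 0.0128 by limma), and it passed with an intensity trend (adjusted p = 0.0409 by limma). It did not pass in the other alternatives: the difference was 0.38 without NeuroD2 replicate 1 (adjusted p = 0.356 by limma) and 0.84 without NeuroD2 replicate 2 (0.0874), and the adjusted p was 0.438 in the unmoderated model. NFIC, the fourth NFI gene, stood at 9.93 and 9.87 on the NeuroD2 arrays, against 9.41 and 9.66 on the control arrays (difference 0.36, adjusted p = 0.112 by limma). It passed with an intensity trend (adjusted p = 0.0277 by limma) and without the dimmer genes (adjusted p = 0.0338 by limma), and not without any 1 array (adjusted p from 0.147 to 0.468 by limma).

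Of 12 measured astrocyte genes, 2 fell, 0 rose and 10 did not pass, with a median of 0.02. At an unadjusted p below 0.05 stood 3 with a negative difference, ALDOC, SLC1A3 and CLU (-0.38), and 1, GFAP (0.24), with a positive one. ALDOC, the brain aldolase of glycolysis, stood at 8.07 and 8.01 on the NeuroD2 arrays, against 8.89 and 8.82 on the control arrays, and fell by 0.82 (adjusted p = 0.00884 by limma). SLC1A3, the glial glutamate transporter, stood at 7.04 and 7.09 on the NeuroD2 arrays, against 7.45 and 7.50 on the control arrays. It fell by 0.41 (adjusted p = 0.0409 by limma), while its averaged probe sets differed by -0.15 (adjusted p = 0.303 by limma). Of 12 neural stem and glioma stem cell genes, 2 fell, 0 rose and 10 did not pass, with a median of -0.11. At an unadjusted p below 0.05 stood 4 with a negative difference, ID3, ID1, HES1 (-0.34) and PAX6 (-0.22), and 1, MSI1 (0.36), with a positive one. Those that fell were ID3 (-1.21) and ID1 (-0.75), whose proteins bind basic helix-loop-helix partners and keep them from DNA. ID3 stood at 9.96 and 9.89 on the NeuroD2 arrays, against 11.15 and 11.13 on the control arrays (adjusted p = 0.00329 by limma), and ID1 at 11.80 and 11.78 on the NeuroD2 arrays, against 12.58 and 12.49 on the control arrays (adjusted p = 0.0108 by limma). Of 12 neuronal genes 1 fell, SNAP25, a synaptic fusion protein gene, by 0.59 (7.93 and 8.06 on the NeuroD2 arrays, against 8.50 and 8.66 on the control arrays, adjusted p = 0.0312 by limma). At an unadjusted p below 0.05 stood 2 neuronal genes with a negative difference, SNAP25 and SYT1 (-0.45), and 2 with a positive one, STMN2 (0.21) and NEFM (0.25). CLU, GFAP, HES1, PAX6, MSI1, SYT1, STMN2 and NEFM were named after their values were seen. Without any 1 of the 4 arrays, ALDOC, SLC1A3, ID1 and SNAP25 did not pass, with adjusted p-values by limma from 0.0752 (ALDOC without NeuroD2 replicate 1) to 0.308 (SLC1A3 without NeuroD2 replicate 1). ID3 passed without NeuroD2 replicate 1 (adjusted p = 0.0287) and without NeuroD2 replicate 2 (0.0325), and did not without control replicate 1 (0.141) or control replicate 2 (0.147).

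None of 12 cartilage-type targets of SOX9, SOX5 and SOX6 passed by limma, and 0 had an unadjusted p below 0.05. Their differences ran from -0.14 (MATN1, a cartilage matrix gene) to 0.12, with a median of 0.02. All 12 lay under the median level of all genes, 6.56. The brightest, COL11A2, stood at 5.78 and 5.62 on the NeuroD2 arrays, against 5.77 and 5.63 on the control arrays. Whether a fall would show at this level was not tested. MATN1 differed by -0.056 without control replicate 1 and by -0.22 without control replicate 2. None of 11 measured oligodendrocyte lineage genes passed, with a median of 0.02 and 0 at an unadjusted p below 0.05. The one with the largest difference was the myelin gene MBP, at 6.66 and 6.77 on the NeuroD2 arrays, against 6.65 and 6.41 on the control arrays (0.19, adjusted p = 0.366 by limma). It differed by 0.30 without control replicate 1 and by 0.070 without control replicate 2.

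**Figure D4:**
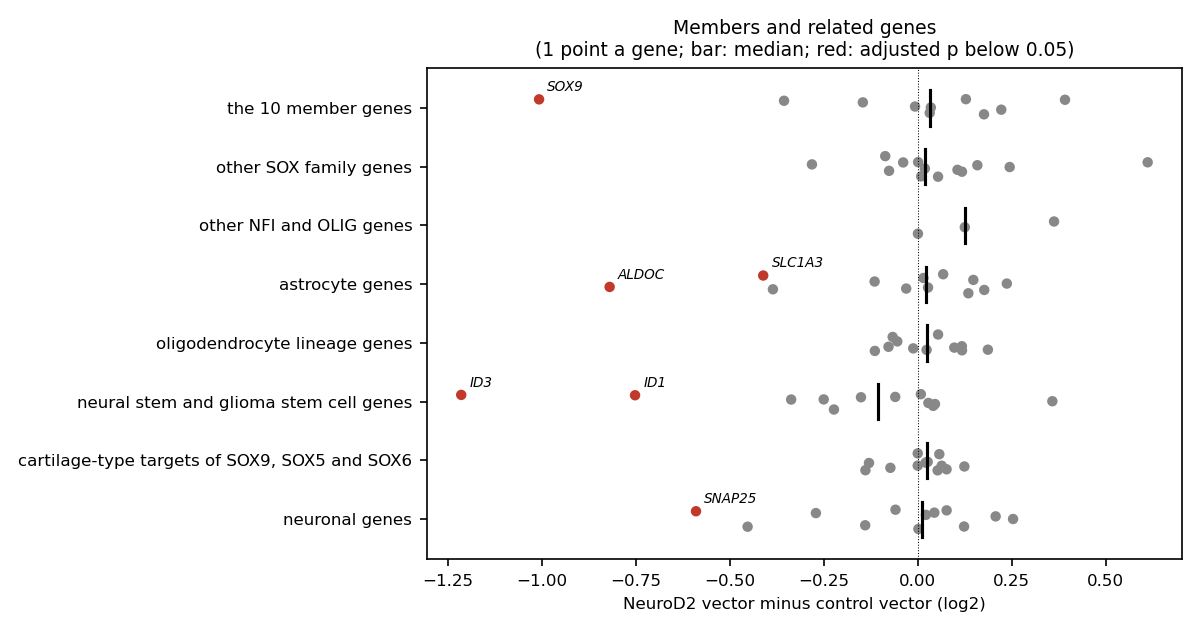
Difference between NeuroD2 vector and control vector (log2, horizontal) of the 10 genes and of 7 related lists (vertical); each point is a gene, black bars are medians, and red points with names passed an adjusted p of 0.05. The list medians lie between -0.11 and 0.13, and every named point lies below 0.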

How the data were processed

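RNA of 4 U87MG cultures, labelled with biotin per the labels' protocols, was hybridised to PrimeView arrays. The deposited table holds 49395 probe set values, taken as log2 from their range (2.65 to 14.3) and as normalized before deposit from near-equal array medians (5.98 to 5.99). No source used here names the software or the summary method. Probe sets were named from the platform annotation, where 44988 carried 1 symbol, 1832 several and 2473 none, and 102 were Affymetrix controls. A gene was read on its probe set with the highest mean. Levels were not compared between probe sets, except to rank brightness and to mark dim ones against the median.

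Groups were compared with limma 3.58.1 in R 4.3.3 (lmFit, eBayes, two-sided, group as the only term, 2 residual and 3.84 prior degrees of freedom). Benjamini-Hochberg adjustment ran over all 18132 genes and, in a second fit quoted for single probe sets, over 49293 probe sets, at 0.05. The number of arrays limits the precision. An exact permutation test of 2 against 2 cannot go below 0.333, so none was used. A limma p-value sets the difference between groups against the spread within groups, moderated with the spread over all genes. The spread within groups may be technical. The fit was run on data simulated from its own variance model, without any shift between arrays. That run checks the code and cannot show how well the model suits these arrays. The 10 genes, the related lists and the rule for named genes (all 10 genes, up to 3 passing genes of each related list or its largest difference, 3 genes of like profile) were chosen with earlier results of these data known. Protein sequences were not used here.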

Additional observations from a re-analysis of the deposited data

How the results depend on the processing

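Results were recomputed with a replicate block, without each array, with a filter at the median level, a robust prior and an intensity trend. Median centring, quantile normalization, the mean of probe sets and an unmoderated model were also used. Of the 10 genes, 5 passed the filter: SOX4, SOX9, NFIB, NFIX and OLIG2. The cause of each shift below was not tested. Quantile normalization, centring and the robust prior kept each count of calls within 1.5 times. The number of genes called, 864 as reported, was 335 with the replicate block, 2056 with an intensity trend, 2081 with the filter and 0 in the unmoderated model (2926 at an unadjusted p below 0.05). It lay between 0 and 66 by limma without 1 array, and was 0 without control replicate 1 (4428 at an unadjusted p below 0.05) and without control replicate 2 (4102). For probe sets, 1416 as reported became 90 with the block, 4041 with the trend, 4086 with the filter and 0 to 45 without 1 array. Of the 10 genes, 1 was called as reported, 2 with the trend, 3 with the filter, 0 in the unmoderated model and 0 or 1 without 1 array. Of the related genes, 5 were called as reported, 8 with the trend, 0 in the unmoderated model and 0 or 1 without 1 array. The gap between replicates 1 and 2 correlated at 0.082 between the groups across genes, so the numbers were not taken to pair samples. The replicate block kept SOX9 past the threshold among genes (adjusted p = 0.0231 by limma) but not among probe sets (0.0529), nor SLC1A3 (0.0752). Signs turned without 1 array for SOX2 (-0.0014 to 0.26), SOX11 (-0.14 to 0.13), NFIA (-0.10 to 0.17), NFIX (-0.056 to 0.12), SOX9 on 11720447_s_at (-0.56 to 0.021) and NFIB on 11749498_a_at (-0.14 to 0.10) and 11753024_a_at (-0.094 to 0.12), and for SOX4 with the mean of probe sets (0.0074). None of these was called.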
